A study of Drosophila melanogaster with 6 samples.

Results

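The lysosomal alpha-mannosidase family of Drosophila melanogaster comprised 6 genes, LManI to LManVI, taken as every probe set whose only annotated gene symbol was one of these names. Each of the 6 genes had 1 such probe set, out of 11982 genes with a probe set of their own and 18952 probe sets in all. The family was chosen by its signals in the comparison of diets on these same arrays, where LManIII and LManV had already been seen to be lower on the fat diet, and was then completed by name. The differences between diets of the 6 genes are therefore given as a description. Where the text counts members past a threshold of the fit, the count describes how they were classed and is not evidence for the difference.

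Adult females of the genotype w1118 were moved at 3 to 5 days of age to their food and kept on it for 1 week in normoxia, so that they were 10 to 12 days old when frozen. The regular diet (RD) was Jazz-Mix food, and the high-fat diet (HFD) contained coconut oil at 20% (weight per volume). Both groups shared the genotype, the sex, the age and the oxygen level. RNA of the whole body was hybridised to Affymetrix arrays, 3 per diet, and each value is a MAS5 signal, a linear intensity for 1 probe set. No label says whether the 3 samples of a diet came from separate cultures, so the spread between arrays may be technical.

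Lysosomal alpha-mannosidases are acid hydrolases that remove mannose from the ends of the sugar chains of glycoproteins delivered to the lysosome. In humans, loss of the lysosomal enzyme causes the storage disease alpha-mannosidosis, in which undigested mannose-rich chains accumulate. The Golgi class II alpha-mannosidases are related in sequence to the lysosomal enzymes but act while N-glycans are being built, and the class I enzymes of the ER and Golgi trim them earlier.

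All 6 genes lay on chromosome arm 2L, in 2 groups of directly adjacent genes. LManIII (CG9463), LManIV (CG9465), LManV (CG9466) and LManVI (CG9468) followed each other with no gene between them in the RefSeq table of Release 6. LManI (CG5322) and LManII (CG6206) were next to each other elsewhere on the arm. The array annotation names no genome build, so no coordinates are given. The genes are close relatives, and whether a probe set also binds the RNA of another member was not tested.

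Without controls, the array medians ran from 52.8 to 55.3 in RD and from 60.7 to 63.8 in HFD, and the trimmed means from 326 to 342. Pairs of arrays had a Pearson's r across log2 signals of at least 0.977 within a diet and at least 0.972 across diets. Signals below 27.9, the level at which dim probe sets were left out of the fit, are treated here as having no reliable order. The ratio of the actin control's 3' to 5' probe set, a measure of RNA or label length, was 7.85, 4.90 and 5.69 on RD arrays 1, 2 and 3 and 9.29, 8.35 and 8.93 on the HFD arrays, so the actin ratio moved with diet without overlap. The same ratio of eIF-4a was 10.03, 5.90 and 7.40 in RD and 10.9, 9.38 and 10.5 in HFD, and that of GAPDH was 2.40, 1.93 and 2.15 in RD and 2.49, 2.25 and 2.51 in HFD. In both of these RD array 1 lay above HFD array 2, so the diets overlapped.

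The 6 mannosidase genes had lower signals on the fat diet, and for each gene the 3 HFD signals lay below the 3 RD signals. Over all 18769 probe sets other than controls, 13.9% had this arrangement. The LManIV signals were all under the level of 27.9, so its arrangement counts for less. Of the 5 members bright enough on average to enter the limma fit, the fit called 5 lower and none higher at an adjusted p of 0.05, where 6.63% of the 11261 probe sets tested were called lower and 12.9% higher. LManIII was among the 5 through its RD signals, since 1 of its HFD signals lay under the level. Nothing is read from these shares, because the comparison was known when the family was chosen. The median log2 difference, HFD minus RD, was -1.68 over the 5 members and 0.0083 over all probe sets tested. In RNA of whole bodies, a loss of cells that express a gene cannot be told apart from less of its RNA in each cell.

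**Figure D1:**
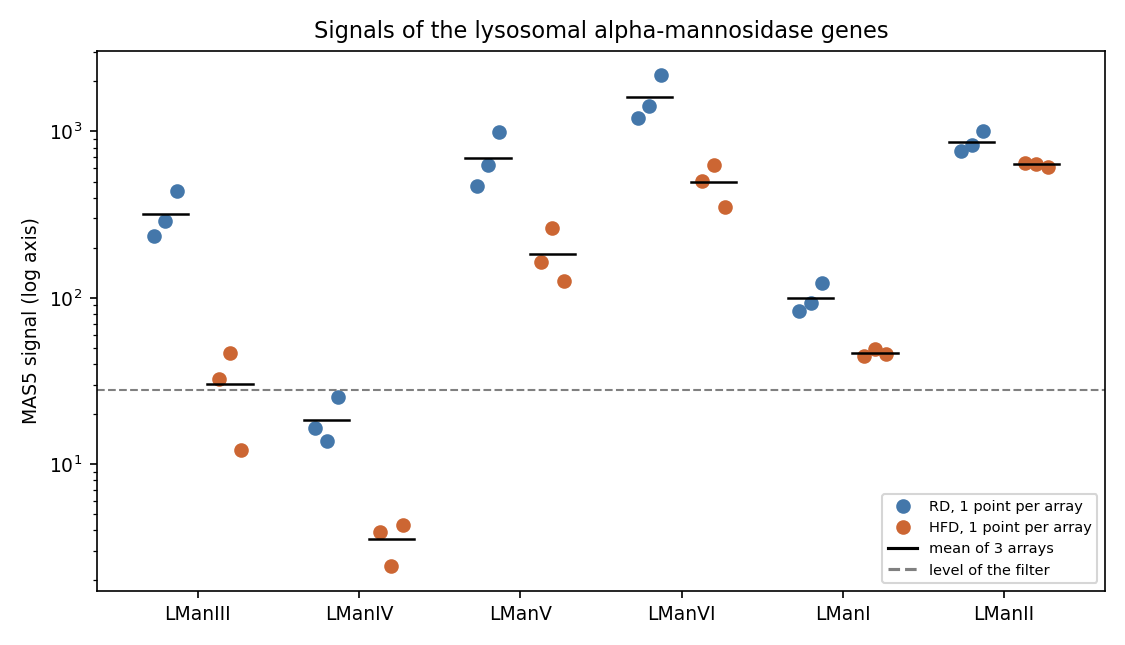
MAS5 signal (log axis) of each lysosomal alpha-mannosidase gene on the 3 RD and the 3 HFD arrays, with 1 point per array, the black bar at the mean of 3 arrays and the dashed line at the filter level of 27.9. For each gene the HFD points lie below the RD points, the LManIV points all lie under the dashed line, and 1 HFD point of LManIII does.

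LManIII showed the widest separation between diets. Its signals were 236, 291 and 436 on RD arrays 1, 2 and 3 and 32.5, 46.7 and 12.2 on HFD arrays 1, 2 and 3. The lowest RD signal was 5.04 times the highest HFD signal. On the log2(signal + 1) scale the difference was -3.49 ± 0.44 (SE, n = 3 per diet). HFD array 3 lay under the filter level, so the size is uncertain. Without that array the difference was -2.96.

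LManIV, its neighbour, was dim on every array. Its signals were 16.4, 13.8 and 25.2 in RD and 3.92, 2.44 and 4.33 in HFD. All 6 lay under the filter level, so LManIV was not tested and no fold is given.

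LManV and LManVI were well measured in both diets. The LManV signals were 470, 631 and 990 in RD and 165, 261 and 126 in HFD, a difference of -1.91 ± 0.32 (SE, n = 3 per diet) on the log2 scale, or 3.77-fold. The LManVI signals were 1198, 1430 and 2176 in RD and 507, 628 and 353 in HFD, a difference of -1.68 ± 0.25, or 3.21-fold. In both genes RD array 3 was well above the other 2 RD arrays, and the lowest RD signal was still 1.80 times (LManV) and 1.91 times (LManVI) the highest HFD signal. Among the 10432 probe sets with all 6 signals above the level, LManV had the 8th lowest difference and LManVI the 12th lowest. Among all probe sets tested, LManV was 11th and LManVI 18th. Nothing is read from these ranks, because LManV had been seen to be lower in this comparison before the family was chosen.

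The other adjacent pair differed less. The LManI signals were 83.5, 93.2 and 123 in RD and 44.6, 49.5 and 45.7 in HFD, a difference of -1.07 ± 0.16 on the log2 scale, or 2.09-fold. The HFD signals of LManI lay close together while the RD signals spread 1.48-fold.

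LManII had the smallest difference of the family. Its signals were 759, 834 and 1012 in RD and 646, 641 and 615 in HFD, a difference of -0.44 ± 0.10, or 1.36-fold, and the lowest RD signal was only 1.17 times the highest HFD signal. LManII was no longer called without HFD array 1, 2 or 3, with differences of -0.46, -0.45 and -0.42. With the ratio of the controls' 3' and 5' signals as a covariate, limma called 0 of the 5 members lower at an adjusted p of 0.05 and 5 at an unadjusted p of 0.05. In that fit 0.471% of all probe sets tested were lower at the adjusted and 5.67% at the unadjusted threshold, and the differences of the members ran from -3.05 (LManIII) to -0.33 (LManII).

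The members shared much of the order of the arrays within a diet. LManIV is left out here, since its signals have no reliable order. RD array 3 gave the highest RD signal for 5 of the 5 members tested, against 17.0% of all probe sets tested and 29.3% of those called lower. RD array 1 gave the lowest for 5 of the 5, against 34.3% and 62.7%. Within HFD, array 2 was highest for 4 genes (LManI, LManIII, LManV and LManVI), against 22.1% and 37.9%. Array 3 was lowest for 4 (LManII, LManIII, LManV and LManVI), against 21.7% and 22.0%. The actin ratio of RD array 3 lay between those of the other 2 RD arrays. RD array 1 had the highest RD ratio of actin, eIF-4a and GAPDH, and HFD array 2 had the lowest HFD ratio of each. The part of RNA length in the shared array order was not tested.

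**Figure D2:**
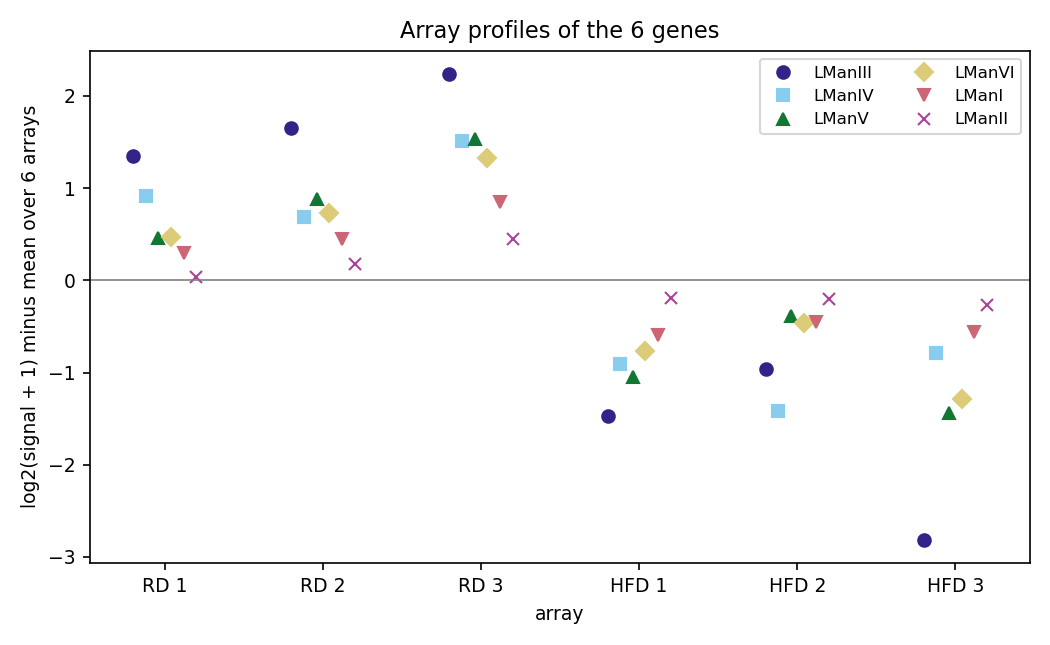
Each gene's log2(signal + 1) minus its own mean over the 6 arrays, with 1 marker per gene on each array. The RD markers lie above 0 and the HFD markers below it, with RD array 3 highest among the RD arrays for the 5 members tested and LManIII lowest on HFD array 3.

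Likeness of 2 array profiles was measured as the root mean square difference over the 6 arrays in log2 signal, each gene centred on its own mean. LManV and LManVI, which are neighbours, were the most alike of the members, at 0.17. LManII and LManIII were the least alike, at 1.62. LManI and LManII, also neighbours, were 0.32 apart. The measure reads the difference between diets as well as the spread within a diet, so any gene with a fall of like size comes out as alike, whatever it does.

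The nearest genes are named with their distances. The 5 nearest to LManI were the maltase gene Mal-A3 (0.069), CG31463 (0.10), the Jonah serine protease genes Jon66Cii (0.12) and Jon25Biii (0.13), and the cytochrome P450 gene Cyp4d1 (0.12). The signals of Mal-A3 were 224, 236 and 314 in RD and 125, 139 and 133 in HFD, with the same array highest in each diet as for LManI. The 5 nearest to LManIII were CG34166 (0.45), Jon25Bi (0.45), the glycine N-methyltransferase gene Gnmt (0.56), Jon25Bii (0.60) and Jon99Ci (0.75), which are farther from it than Mal-A3 is from LManI. LManV had LManVI, CG6508 (0.28), CG13138 (0.36), the sorbitol dehydrogenase gene Sodh1 (0.38) and CG31928 (0.40) as its nearest. LManVI had LManV, CG6508 (0.21), CG13138 (0.28), CG32642 (0.30) and the protease gene Jon44E (0.31). For LManIV, whose signals have no reliable order, the nearest were CG13325 (0.33), CG6296 (0.34), smp-30 (0.37), CG7631 (0.38) and CG18179 (0.42).

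Of the 8 nearest tested genes beside the mannosidases on arm 2L, limma called 0 lower and 3 higher, against 1 lower and 4 higher at an unadjusted p of 0.05. Over all probe sets tested, 6.63% were called lower and 12.9% higher. At an unadjusted p of 0.05, 4003 of the 11261 passed in either direction. The nearest tested genes around LManIII to LManVI were Hnf4, a nuclear receptor gene, and raw on one side and SoxN, a Sox-family transcription factor gene, and CG34398 on the other, between 2 and 13 genes away. SoxN rose from 81.9 ± 24.2 to 167 ± 11.3 (SD, n = 3 per diet; 1.06 ± 0.20 on the log2 scale, limma adjusted p = 0.0102), and CG34398 rose by 1.18 ± 0.19 (adjusted p = 0.00608). Hnf4 was at -0.040 ± 0.073 (adjusted p = 0.726) and raw at 0.13 ± 0.056 (adjusted p = 0.135). Around LManI and LManII, the pseudouridine synthase gene RluA-1, directly beside LManII, was at 0.46 ± 0.13 (adjusted p = 0.0465), a call that 10 of 12 alternatives ended, among them the fits that left out RD array 2, RD array 3 or any 1 HFD array. RluA-2 (-0.075 ± 0.11, adjusted p = 0.649), loh (0.15 ± 0.15, adjusted p = 0.485) and Nse4 (-0.25 ± 0.099, adjusted p = 0.113) did not pass. With the control ratio as a covariate SoxN and CG34398 did not pass either (adjusted p = 0.115 and 0.120).

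**Figure D3:**
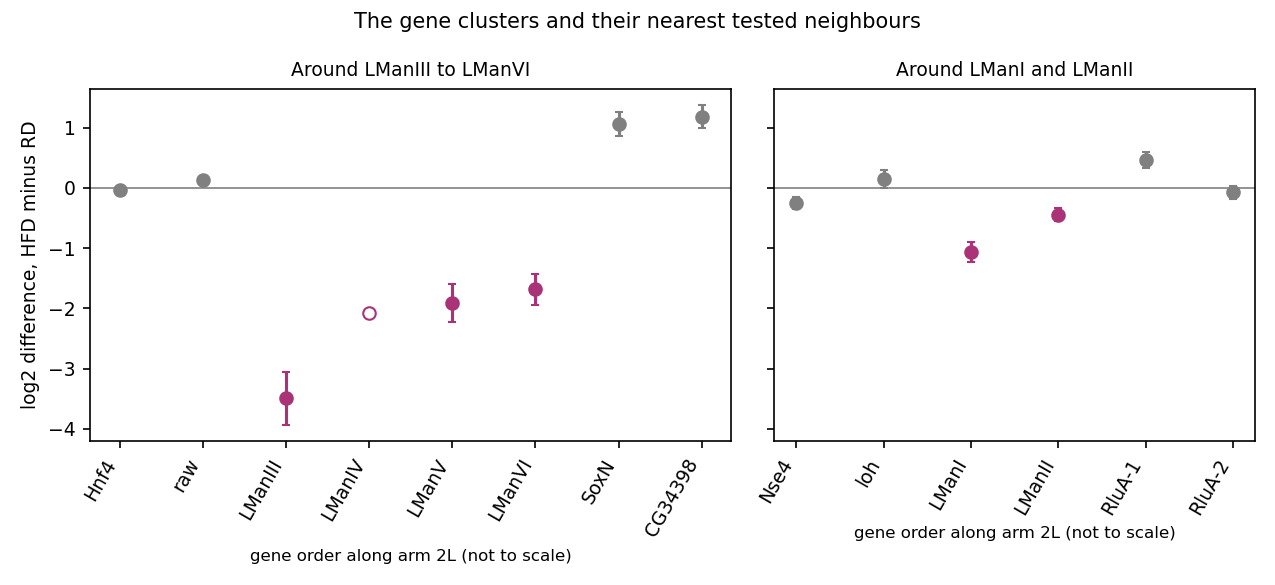
Log2 difference, HFD minus RD, of the members (purple) and of the nearest tested genes on each side (grey) in their order along arm 2L, with bars of 1 SE and an open point for LManIV, which was not in the fit. The members lie between -3.49 and -0.44, and the grey points between -0.25 and 1.18.

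The list of other mannosidases also held N-glycan enzymes that act beside them: the subunits of glucosidase II, which remove glucose, and Mgat1, which adds N-acetylglucosamine. The list held 10 genes, of which 9 were measured and tested, with a median log2 difference of -0.15. At a limma adjusted p of 0.05, 2 fell, none rose and 7 did not pass. At an unadjusted p of 0.05, 4 were lower and 0 higher. Of all 11261 probe sets tested, 6.63% were called lower and 12.9% higher at the adjusted threshold. In either direction, 4003 of them had an unadjusted p under 0.05. These shares over all probe sets also hold beside the counts of the lists below. The Golgi class II gene alpha-Man-IIb fell from 651 ± 34.5 to 520 ± 49.1 (SD, n = 3 per diet; -0.33 ± 0.085 on the log2 scale, adjusted p = 0.0328). GCS2beta, the beta subunit of ER glucosidase II, fell from 808 ± 13.1 to 688 ± 46.7 (-0.23 ± 0.066, adjusted p = 0.0417).

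The other Golgi class II gene, alpha-Man-IIa, was at 0.040 ± 0.064 (adjusted p = 0.685), and the class I genes alpha-Man-Ia and alpha-Man-Ib were at -0.24 ± 0.076 (adjusted p = 0.0626) and -0.18 ± 0.063 (adjusted p = 0.0825). The lysosomal beta-mannosidase gene beta-Man, which acts on the last mannose of the chain core, went from 620 ± 9.22 on RD to 586 ± 36.3 on HFD, which did not pass (-0.084 ± 0.066, adjusted p = 0.393). Edem2, of ER quality control, was at -0.15 (adjusted p = 0.425), GCS2alpha, the catalytic subunit of glucosidase II, at -0.068 (adjusted p = 0.373) and Mgat1 at -0.038 (adjusted p = 0.757). The list had 1 gene that fell when RD array 1 was left out and 0 when either of RD arrays 2 and 3 or of HFD arrays 1 and 2 was, as with the control ratio as a covariate. It had 3 when HFD array 3 was left out.

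**Figure D4:**
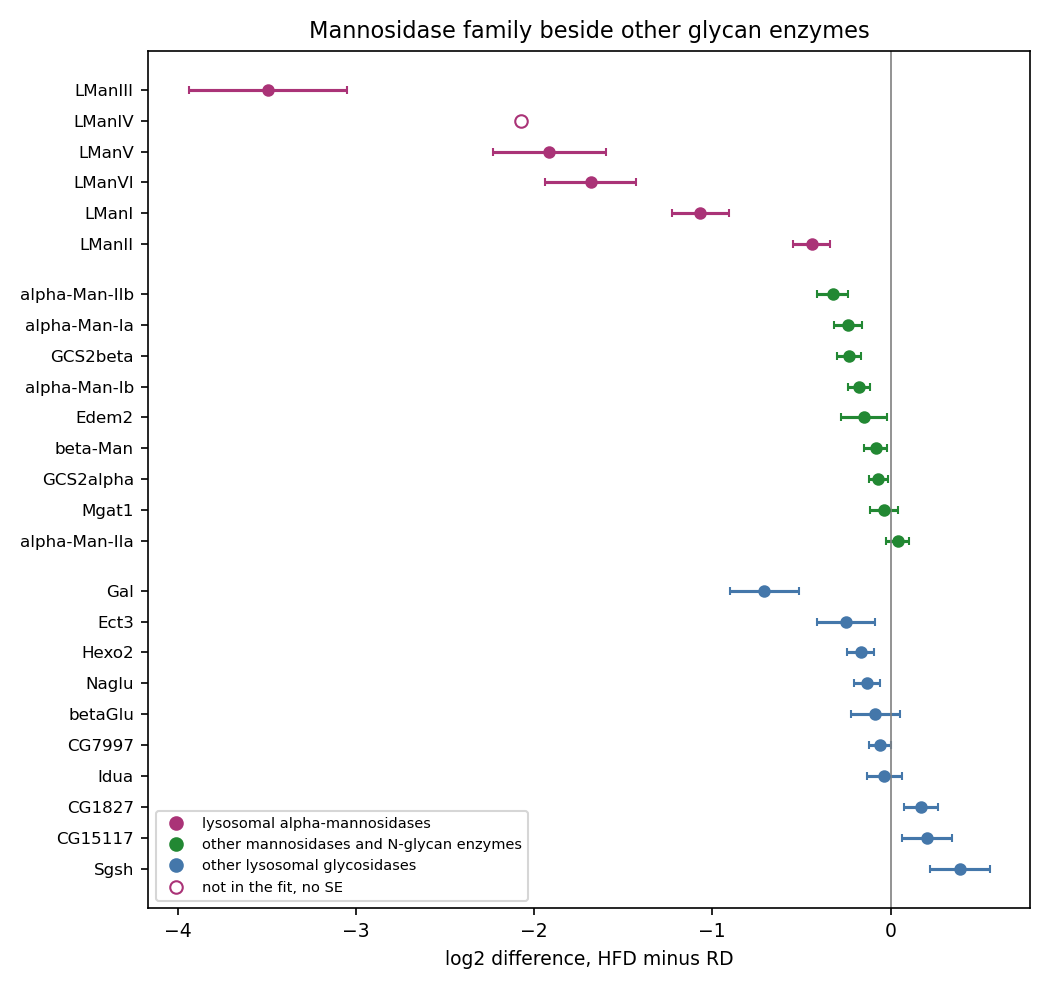
Log2 difference, HFD minus RD, with bars of 1 SE, for the lysosomal alpha-mannosidases (purple; LManIV open, not in the fit), the other mannosidases and N-glycan enzymes (green) and the other lysosomal glycosidases (blue, beta-Man shown only in green). The members lie from -3.49 to -0.44, the green points from -0.33 to 0.040 and the blue points from -0.71 to 0.39.

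Of 20 other lysosomal glycosidase and sulfatase genes, 15 were measured and 11 tested. In this list 1 gene fell, none rose and 10 did not pass (limma; 1 lower and 0 higher at an unadjusted p of 0.05), and the median was -0.084. The gene that fell was Gal, which codes for a beta-galactosidase. Its signals were 192, 212 and 311 in RD and 133, 170 and 127 in HFD (-0.71 ± 0.19, adjusted p = 0.0388). Gal lost its call when either of RD arrays 2 and 3 or of HFD arrays 1 and 3 was left out and with the control ratio as a covariate.

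Proteases, membrane proteins and sorting factors of the lysosome made up the last list. Of 21 genes 20 were measured and tested, and limma called 0 lower and 0 higher, against 1 lower and 2 higher at an unadjusted p of 0.05; the list median was 0.014. The list included Debcl, a Bcl-2 family gene that is not of the lysosome. The smallest p-values were those of emp, a CD36-like membrane protein gene, at 0.33 ± 0.11 (adjusted p = 0.0609), and Gnptab, whose human counterpart adds the mannose 6-phosphate tag to lysosomal enzymes, at -0.28 ± 0.11 (adjusted p = 0.104). Without RD array 1 the list had 1 gene that rose, and without HFD array 3 it had 1 that fell.

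Markers of tissues in the whole body were read beside the family. These lists were chosen with earlier results of these data known, so their counts are a description. Of 14 midgut markers 9 were measured and tested, with 0 lower and 2 higher (limma; 0 and 2 at an unadjusted p of 0.05). The genes that rose were the neuropeptide genes Mip (0.83 ± 0.15, adjusted p = 0.00984) and AstC (0.32 ± 0.078, adjusted p = 0.0256), which neurons also express, and AstC lost its call with median centring and when either of RD arrays 2 and 3 or of HFD arrays 1 and 3 was left out. With the control ratio as a covariate neither passed (adjusted p = 0.169 for Mip and 0.326 for AstC). The summed signal of the midgut list ran from 5762 to 6070 in RD and from 5668 to 6240 in HFD, and no measured marker was at 0. Most of it came from yin alone, at 3770, 4000 and 3911 in RD and 3550, 3787 and 3810 in HFD. The midgut list did not hold the Jonah protease and maltase genes named above, so it does not speak for them. Their log2 differences ran from -3.41 (Jon25Bi) to -0.87 (Jon25Biii). Those genes were named for their likeness to the members, so no share is read from them. Malpighian tubule markers had 1 of 6 tested genes higher, Irk2 (0.43 ± 0.11, adjusted p = 0.0330), and summed to 1830 to 2249 in RD and 1822 to 2481 in HFD. Irk2 lost its call with the control ratio (adjusted p = 0.152), with median centring and when RD array 1, RD array 3 or any 1 HFD array was left out. Of 8 fat body markers tested, 6 fell, among them Lsp2, Gnmt, fit and apolpp (the last not with the control ratio as a covariate). The HFD signals of Lsp2 were 15.3, 20.4 and 16.2, all under the filter level. Lsp2 entered the fit through its RD signals, so the size of its fall is uncertain. The tested fat body markers that did not pass were Yp1 and Lsd-1 (limma adjusted p = 0.299 and 0.291). The summed signal of the fat body list was 44458 to 49749 in RD and 32778 to 36448 in HFD. Most of this sum came from the genes Yp1, Yp2 and Yp3. Their means were 8816, 13328 and 11988 in RD and 8289, 10131 and 10246 in HFD. The part of fat body transcripts in the lower mannosidase signals was not tested.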

How the data were processed

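The deposited values are linear intensity values (MAS5 signals) per probe set, made with MAS5 per the submitters' processing notes; the version, the scaling target and any detection calls are not given in the sources used here. RNA of whole flies was extracted with Trizol and cleaned on RNeasy columns, per the labels' protocols. No column belonged to another sample. Signals of the 18769 probe sets other than the 183 AFFX controls were used as log2(signal + 1). Those whose mean log2 value exceeded the 40th percentile (4.86) entered the fit, 11261 in number. Adding 1 understates the change of dim genes. HFD was set against RD in limma 3.58.1 under R 4.3.3 (intensity trend, two-sided, Benjamini-Hochberg over the 11261, threshold 0.05), with no further normalization and 6 arrays; their number limits the precision. The fit was tested on simulated data. Probe sets were named from the array annotation (13647 with 1 gene symbol, 402 with several, 4720 with none here), and all 6 members matched the RefSeq table by gene ID. Of several probe sets of a gene, the brightest was used.

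The members and gene lists were chosen with earlier results of these data known. Named were the 6 members, all tested genes of the list of other mannosidases and N-glycan enzymes, of each other list up to 4 genes past the threshold or, with none, the 2 smallest p-values, the 2 nearest tested genes on each side, and the 5 most alike genes for each member with a log2 difference of at least 1 in size. Alternatives were quantile normalization, median centring, adding 16, no filter or one at the 60th percentile, the replicate number as a block, a covariate for RNA length (the 3'/5' signal ratio of 3 control transcripts, actin, eIF-4a and GAPDH, as a mean of log2 values), and each array left out in turn. Python 3.11.15 and matplotlib 3.10.9 drew the figures.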

Additional observations from a re-analysis of the deposited data

How the results depend on the processing

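The members tested kept a negative difference under each alternative; LManI ran from -1.28 to -0.88, LManII from -0.65 to -0.33, LManIII from -3.89 to -2.89, LManV from -2.20 to -1.43 and LManVI from -1.89 to -1.37. Members called lower numbered 3 of 3 tested with the filter at the 60th percentile, which removed LManI and LManIII, 0 with the control 3'/5' ratio as a covariate, and 4 to 5 without 1 array. Probe sets called in all numbered 4995 with median centring (4023 of them lower), which moved the median difference from 0.0083 to -0.20. They numbered 1361 with the 60th percentile filter (573 lower) and 266 with the control ratio (53 lower). Without 1 array they numbered 1008 to 2707 (245 to 840 lower). Other mannosidases and N-glycan enzymes that fell numbered 6 with median centring, 0 without a filter, 0 with the control ratio and 0 to 3 without 1 array. Other lysosomal glycosidases that fell numbered 5, 0, 0 and 0 to 1 in the same order. Lysosomal proteases and membrane proteins that fell numbered 1 with quantile normalization, 8 with median centring and 0 to 1 without 1 array, and those that rose 0 to 1 without 1 array. The calls were 34.0% lower in the main setting, 48.0% with quantile normalization and 80.5% with median centring.

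Same-numbered arrays of the 2 diets deviated with r of 0.072, 0.10 and 0.027 across probe sets, and RD array 3 correlated best with HFD array 2, so they were taken to share only a number. With the replicate block 2560 probe sets were called, 929 of them lower. In that fit 5 members were lower and 1 lysosomal protease or membrane gene, emp, rose. Of the genes named outside the family, Mgat1 changed sign with the control ratio (0.12) and without RD array 2 (0.016; -0.11 to 0.016 without 1 array), alpha-Man-IIa with median centring (-0.17) and the control ratio (-0.024), Hnf4 with the control ratio (0.020) and without HFD array 1 (0.017; -0.10 to 0.017 without 1 array), RluA-2 with the control ratio (0.065) and without HFD array 1 (0.0054), and raw and loh with median centring (-0.077 and -0.057); none of these 6 genes passed the threshold in any alternative. The cause of these changes was not tested. Signals under 27.9 limit what can be said of LManIV and, in HFD, of LManIII and the fat body marker Lsp2.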

Other observations

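Gal, the beta-galactosidase gene, followed the array order of the cluster genes LManIII, LManV and LManVI within each diet: RD array 3 highest and RD array 1 lowest, then HFD array 2 highest and HFD array 3 lowest. This was chosen after its values were seen. Of the 11261 probe sets tested, 156 (1.39%) had this order, and of the 747 called lower in HFD, 28 (3.75%) did. RD array 3 was the highest RD array for 29.3% of the probe sets called lower and for 17.0% of those tested.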
